A study of Homo sapiens with 6 samples.

Results

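The genes described here carry the growth signal from an activated receptor at the membrane to the kinase ERK, namely GRB2, SHC1, SOS1, SOS2, ARAF, MAP2K1, MAP2K2 and MAPK3. They were chosen by name, as the entries of the sgRNA count table whose target symbol equals one of these names, and they make up 8 of the 20664 genes and microRNAs that the table lists. The table holds 42 sgRNAs for them. The screen was run in MDA-MB-231, an established human line of triple-negative breast cancer, after stable expression of Cas9, transduction with the pooled GeCKO v2 knockout library and puromycin selection for 7 days, all of which the control cells share. The cells then received DMSO, the vehicle, or 10 µM erlotinib, an inhibitor of the EGFR kinase, for 7 days. The sgRNA sequences amplified from genomic DNA were counted in 3 libraries for DMSO and 3 for erlotinib. The sources used here do not say whether the Cas9 line is a clone. The methods define biological replicates in general as separate experiments on separately grown cells but do not tie this to the screen, so p-values measure the spread between these libraries, which may be technical. Some label fields name RNA, a xenograft and the murine 4T1.2 line, and the treatment fields and the protocol, which describe the screen, were followed.

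In this cascade the adaptors GRB2 and SHC1 dock on phosphorylated receptors and bring the exchange factors SOS1 and SOS2 to the membrane, where they load RAS with GTP. RAS then activates the RAF kinases, to which ARAF belongs, RAF phosphorylates the MEK kinases encoded by MAP2K1 and MAP2K2, and MEK phosphorylates ERK, to which the product of MAPK3 belongs. EGFR is a classical activator of this route. MDA-MB-231 carries an activating mutation of BRAF, which signals below the receptor and the exchange factors. In a pooled knockout screen each sgRNA marks the cells that carry it, so a low count means that little DNA of such cells was read. Whether the gene was cut in those cells is not seen in the counts.

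The 6 libraries held 1574743 to 4263494 counts. Levels are given in CPM, the usual scaling of counts by the total of their library. A floor of 3 counts, used here as an approximate upper limit for a count of 0, came to 0.704 to 1.91 CPM in DMSO and 0.900 to 1.69 CPM in erlotinib. Each library's median count over all sgRNAs was 0. PCR products were read without molecular identifiers and do not stand for independent molecules, so these limits and the intervals below cover counting error only. The reverse part of the library labels differed between DMSO and erlotinib. The labels do not say what it names, and if it is a primer, primer and condition cannot be told apart. Counts of sgRNAs hold no expression, so the cell line could not be checked against markers.

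sgRNAs of the 8 genes were found in every DMSO library and were rare under erlotinib. DMSO replicates 1 to 3 held 14, 11 and 13 of the 42 sgRNAs, which is 33.3% (95% Wilson interval 21.0 to 48.4), 26.2% (15.3 to 41.1) and 31.0% (19.1 to 46.0). Each erlotinib library held 1 of the 42, or 2.38% (95% Wilson interval 0.422 to 12.3). The groups did not overlap. The mean share was 30.2% ± 3.64 (SD, n = 3) in DMSO, beside 35.7% ± 3.01 (SD, n = 3) for all sgRNAs with a target, and in each DMSO library the interval of the 8 genes included the share of all sgRNAs. Non-targeting sgRNAs, which cut no gene, were also lower, with 56.9% ± 4.40 (SD, n = 3) found in DMSO and 3.93% ± 0.504 (SD, n = 3) in erlotinib, and all sgRNAs with a target came to 1.95% ± 0.156 (SD, n = 3) in erlotinib. The part of this loss across the whole library in the values of the 8 genes was not tested. Fewer cells carrying an sgRNA and fewer reads from each such cell cannot be told apart.

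**Figure D1:**
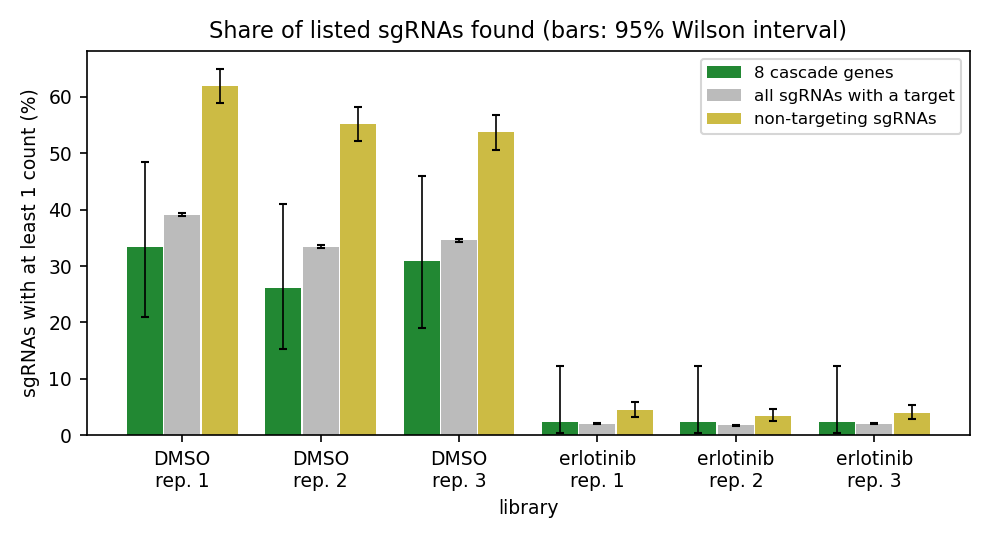
Share of listed sgRNAs with at least 1 count (percent, y axis) in each of the 6 libraries (x axis), for the sgRNAs of the 8 cascade genes, all sgRNAs with a target and non-targeting sgRNAs. Bars are shares and lines are 95% Wilson intervals. The 8 genes lie between 26.2% and 33.3% in DMSO libraries and at 2.38% in each erlotinib library.

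In DMSO, 27 of the 42 sgRNAs (64.3%) were found in any library, compared with 69.0% of all sgRNAs with a target. Of these 27, 19 were found in 1 DMSO library (70.4%), 5 in 2 and 3 in all 3 (11.1%). Among all targeted sgRNAs found in DMSO, 55.8% were found in 1 library and 10.9% in all 3. The 38 DMSO counts above 0 ran from 1 to 280 with a median of 49.5. The remaining 15 of the 42 sgRNAs (35.7%) had 0 counts in all 6 libraries, beside 29.8% of all sgRNAs with a target. Under erlotinib there were 3 counts above 0, and they belonged to 1 sgRNA of SOS1 and 1 of MAP2K1. Of the 252 values of the 42 sgRNAs, 5 were counts of 1 or 2. No sgRNA of the 8 genes was closer than 4 base differences to a listed sgRNA of another target.

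**Figure D2:**
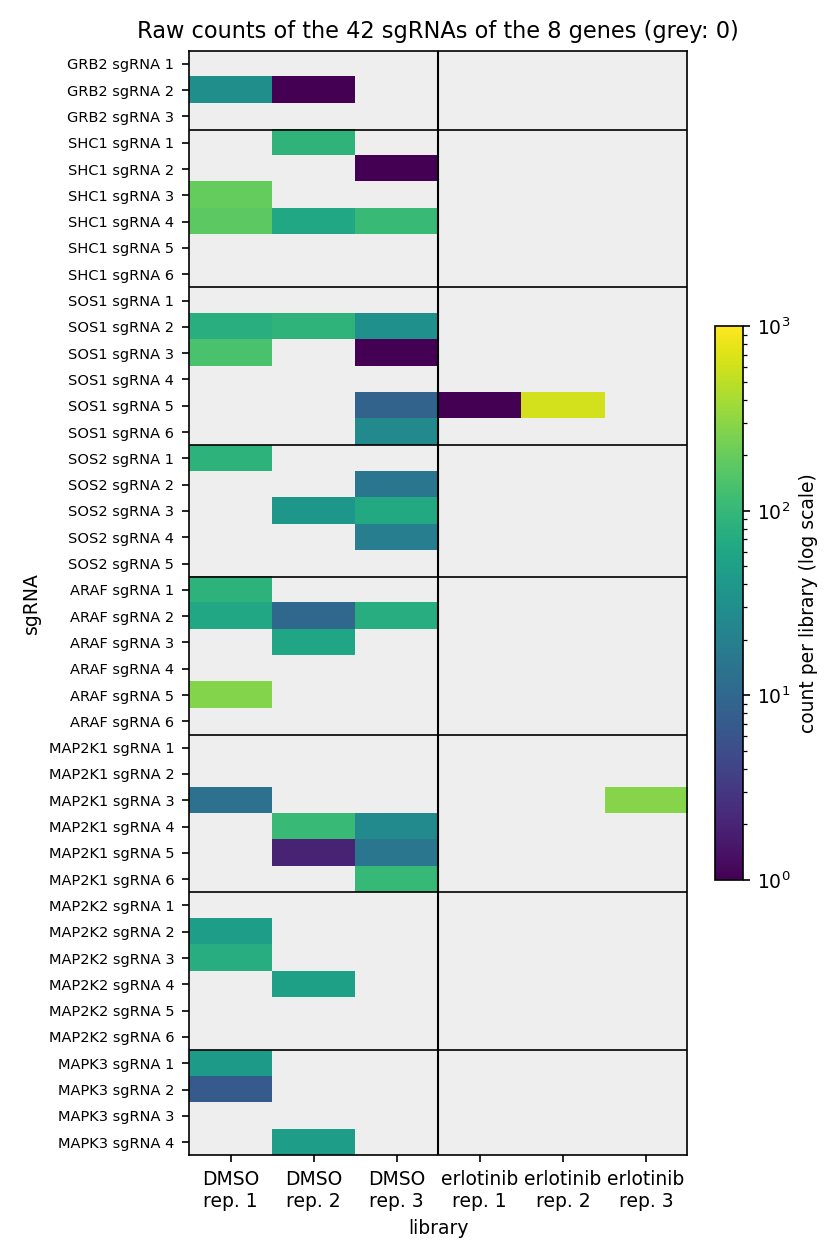
Raw counts (colour, log scale, grey for 0) of the 42 sgRNAs (y axis, numbered within each gene by alphabetical order of sequence) in the 3 DMSO and 3 erlotinib libraries (x axis). Coloured cells lie almost entirely on the DMSO side, mostly in 1 library per sgRNA, and the erlotinib side holds 3, with 1 and 623 counts of SOS1 sgRNA 5 and 286 counts of MAP2K1 sgRNA 3.

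For the comparison of erlotinib with DMSO, the counts of all sgRNAs of a gene were summed in each library and tested across 20409 genes and microRNAs with edgeR's quasi-likelihood test, with upper-quartile scaling and Benjamini-Hochberg adjustment. Of the 8 genes, SHC1, SOS2 and ARAF were called depleted at an adjusted p under 0.05, 0 were enriched, and GRB2, SOS1, MAP2K1, MAP2K2 and MAPK3 were not called. Depletion was called for 66.1% of all genes tested and 37.5% of the 8. By the likelihood ratio test in edgeR it was called for 6 of the 8 and for 15118 of the 20409. The gap between the 8 and the background therefore depended on the test, and by the likelihood ratio test the 8 lay close to the background. The median fitted log2 fold change was -9.00 for the 8 genes and -10.13 for all, and for genes with 0 counts under erlotinib the fitted size depends on the small count that edgeR adds. By levels alone, every DMSO library lay above every erlotinib library for the same 3 genes, compared with 56.0% of all listed genes. Counts were 0 in all 3 erlotinib libraries for 6 of the 8 genes, close to the 75.9% of all listed genes.

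Genes can be sorted by the libraries in which they were read, which uses the same counts as the test and is given as a description only. Of the 10678 genes with counts in all 3 DMSO libraries and none under erlotinib, as for SHC1, SOS2 and ARAF, 99.5% were called depleted. Of the 3718 genes with counts in 2 DMSO libraries and none under erlotinib, as for GRB2, MAP2K2 and MAPK3, 62.3% were called. Of the 3811 genes with counts in all 3 DMSO libraries and in at least 1 erlotinib library, as for SOS1 and MAP2K1, 12.9% were called.

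GRB2, the adaptor whose SH3 domains hold SOS, was the least covered of the 8. Its sgRNAs gave 7.27, 0.453 and 0 CPM in DMSO replicates 1 to 3 and 0 in every erlotinib library. The first of these values rested on 31 counts and the second on 1, and DMSO replicate 3 was as empty as the erlotinib libraries. The reads came from 1 of the 3 listed sgRNAs, which is shown because it alone carried the gene:

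GRB2 sgRNA 2: attatgtcacccccgtgaac

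By its DMSO mean of 2.57 ± 4.07 CPM (SD, n = 3) GRB2 was at least 1.90-fold lower under erlotinib, set against 3 counts per library, a bound that is lost without DMSO replicate 1, and the difference did not pass (adjusted p = 0.154, edgeR quasi-likelihood test). Per listed sgRNA, 1.77% of protein-coding genes had a lower DMSO level. The likelihood ratio test in edgeR gave an adjusted p of 0.0443, the lowest over the alternatives, which reached 0.556.

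SHC1, the adaptor that is phosphorylated by receptors and recruits GRB2, had the highest mean level of the 8 in DMSO, although ARAF was higher in replicate 1 and MAP2K1 in replicate 3, with 87.3, 68.5 and 67.3 CPM in replicates 1 to 3. It had 0 counts in all 3 erlotinib libraries. The DMSO libraries lay close together and far from the erlotinib libraries. SHC1 was at least 54.8-fold lower under erlotinib (adjusted p = 0.00503, edgeR quasi-likelihood test). Of its 6 sgRNAs, 4 were found in DMSO, and sgRNA 4 supplied 60.8% of the mean level with 174, 62 and 105 counts. That sgRNA and sgRNA 1 lie on opposite strands and overlap by 14 bases, in capitals:

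SHC1 sgRNA 1: agtccaGGGCACGCATTGAC

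SHC1 sgRNA 4: cctccaGTCAATGCGTGCCC

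Although they target nearly the same site, sgRNA 1 was read only in DMSO replicate 2, with 89 counts. The others found were sgRNA 3, with 198 counts in DMSO replicate 1, and sgRNA 2, with 1 count in DMSO replicate 3.

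SOS1, the main exchange factor in many cell types, held steady levels in DMSO of 51.1, 40.3 and 43.8 CPM, with a mean of 45.1 ± 5.51 (SD, n = 3). Under erlotinib it gave 0.493, 351 and 0 CPM. Replicate 2 therefore stood above every DMSO library while the other two lay below every one, and the groups overlapped. The fitted log2 fold change was 0.18 ± 2.41 (SE), and it was not called (adjusted p = 0.954, edgeR quasi-likelihood test). Its sign turned with the scaling, to -1.01 with TMM. Without erlotinib replicate 2 it was -8.61 and called (adjusted p = 0.00925, edgeR quasi-likelihood test), and the adjusted p ran from 0.00423 to 0.971 over the alternatives. Leaving out that library or the most abundant sgRNA takes out nearly all erlotinib reads of SOS1, so a call there largely follows from the choice.

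The erlotinib reads of SOS1 all came from sgRNA 5, which is shown beside sgRNA 2, the most abundant of the gene in DMSO:

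SOS1 sgRNA 2: ccgaagtgcttcagatgtag

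SOS1 sgRNA 5: tccctcatccaattgataaa

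DMSO replicates 1 to 3 held 79, 89 and 32 counts of sgRNA 2, and no erlotinib library held any. For sgRNA 5 the DMSO counts were 0, 0 and 9 and the erlotinib counts 1, 623 and 0. The 623 counts ranked 556 among the 1910 sgRNAs found in erlotinib replicate 2, where the median sgRNA found had 197 counts. In the test of single sgRNAs it had a log2 fold change of 4.98 ± 3.32 (SE) and was not called (adjusted p = 0.223, edgeR quasi-likelihood test). sgRNAs 3 and 6 were found in DMSO alone, with 139, 0 and 1 and with 0, 0 and 27 counts, and sgRNAs 1 and 4 in no library.

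SOS2, the paralogue of SOS1, gave 20.6, 17.7 and 63.5 CPM in DMSO and 0 counts in every erlotinib library. DMSO replicate 3 was the highest, and the groups did not overlap. The gene was at least 25.0-fold lower under erlotinib (adjusted p = 0.00648, edgeR quasi-likelihood test), or at least 14.1-fold without DMSO replicate 3. With its most abundant sgRNA left out the adjusted p was 0.0662 in edgeR, within a range of 1.78e-08 to 0.183 over the alternatives. That sgRNA, number 3, had 0, 39 and 66 counts in DMSO and shares 8 bases, in capitals, with sgRNA 4 on the opposite strand, which had 0, 0 and 19:

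SOS2 sgRNA 3: ccatgtatccctATATATTG

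SOS2 sgRNA 4: ctagtacagccaCAATATAT

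Here the sgRNAs of the overlapping sites were read together in DMSO replicate 3 and in no other library. sgRNA 1 had 88 counts in DMSO replicate 1 and sgRNA 2 had 15 in DMSO replicate 3. sgRNAs of both exchange factors were poor in G and C, with a median of 40% over 11 sgRNAs, compared with 50% over all sgRNAs with a target.

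ARAF, the RAF kinase with the weakest activity toward MEK, gave 101, 31.3 and 46.4 CPM in DMSO and 0 counts in every erlotinib library. Replicate 1 was the highest, and the groups did not overlap. ARAF was at least 43.8-fold lower under erlotinib (adjusted p = 0.00503, edgeR quasi-likelihood test), or at least 28.6-fold without DMSO replicate 1. Of its 6 sgRNAs, 4 were found in DMSO, and 2 of these overlap by 15 bases, in capitals, on opposite strands:

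ARAF sgRNA 2: caccaTCAGTGCTGAAACTC

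ARAF sgRNA 5: ggccaGAGTTTCAGCACTGA

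sgRNA 2 was read in all 3 DMSO libraries with 63, 10 and 73 counts. sgRNA 5 had the largest DMSO count of the 42, 280, in replicate 1, and 0 in the other two. Although their sites overlap, they were read together in replicate 1 alone. sgRNA 1 had 86 counts in DMSO replicate 1 and sgRNA 3 had 59 in DMSO replicate 2.

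MAP2K1, which encodes the kinase MEK1, had the largest SD between DMSO libraries in CPM, 44.5, though not relative to its mean, with 3.05, 50.3 and 92.1 CPM. The erlotinib libraries held 0, 0 and 85.8 CPM. Erlotinib replicate 3 reached the upper DMSO values, so the groups overlapped. The fitted log2 fold change of -2.14 ± 2.39 (SE) was not called (adjusted p = 0.464, edgeR quasi-likelihood test). Without erlotinib replicate 3 it was -10.18 and called (adjusted p = 0.0172, edgeR), and the adjusted p ran from there to 0.835 over the alternatives. That library held all erlotinib reads of the gene, so the call largely follows from leaving it out.

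All erlotinib reads of MAP2K1 belonged to sgRNA 3, with 286 counts in replicate 3, which ranked 1152 of the 2183 sgRNAs found there and lay below their median of 341. In DMSO this sgRNA had 13, 0 and 0 counts. It is shown here for that reason:

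MAP2K1 sgRNA 3: cccgacggctctgcagttaa

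The DMSO level of the gene came from other sgRNAs, with 0, 109 and 27 counts for sgRNA 4, 0, 0 and 103 for sgRNA 6 and 0, 2 and 15 for sgRNA 5. For SOS1 and MAP2K1 alike, the sgRNA read under erlotinib had the lowest mean DMSO level among the sgRNAs of its gene found there.

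MAP2K2, which encodes the second MEK kinase, MEK2, gave 28.1, 23.1 and 0 CPM in DMSO and 0 counts in every erlotinib library. DMSO replicate 3 did not differ from the erlotinib libraries. The gene was at least 12.6-fold lower under erlotinib by its mean and missed the threshold narrowly (adjusted p = 0.0506, edgeR quasi-likelihood test). It passed in 5 of 15 alternatives, among them TMM scaling (adjusted p = 0.0476, edgeR) and the likelihood ratio test, with a range of 0.00614 to 0.290. Of its 6 sgRNAs, 3 were found, each in 1 library. sgRNAs 3 and 4 overlap by 10 bases on opposite strands and were read apart, with 73 counts in DMSO replicate 1 and 51 in DMSO replicate 2:

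MAP2K2 sgRNA 3: gatctccccgTCACTGTAGA

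MAP2K2 sgRNA 4: tacggggcctTCTACAGTGA

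The MEK kinases are close paralogues, and sgRNA 4 of MAP2K2 corresponds to sgRNA 5 of MAP2K1. They differ at 4 of 20 positions, in capitals, and are shown because 4 differences is the smallest number met for any of the 42 sgRNAs:

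MAP2K1 sgRNA 5: taTggTgcGttctacagCga

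MAP2K2 sgRNA 4: taCggGgcCttctacagTga

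The MAP2K1 sgRNA had 0, 2 and 15 counts in DMSO and the MAP2K2 sgRNA 0, 51 and 0. Neither was read under erlotinib.

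MAPK3, which encodes the kinase ERK1 at the end of the cascade, gave 11.7, 21.8 and 0 CPM in DMSO and 0 counts in every erlotinib library. As for MAP2K2, DMSO replicate 3 was empty. MAPK3 was at least 8.22-fold lower under erlotinib by its mean, or at least 4.32-fold without DMSO replicate 2, and was not called (adjusted p = 0.0702, edgeR quasi-likelihood test). Without DMSO replicate 3 the adjusted p was 0.0438 in edgeR, within a range of 0.0105 to 0.351 over the alternatives. Of its 4 listed sgRNAs, 3 were found, each in 1 library, with 43 and 7 counts in DMSO replicate 1 for sgRNAs 1 and 2 and 48 in DMSO replicate 2 for sgRNA 4:

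MAPK3 sgRNA 4: gcgtagccacatactccgtc

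This is the sgRNA that supplied the largest part, 65.0%, of the mean DMSO level of the gene.

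**Figure D3:**
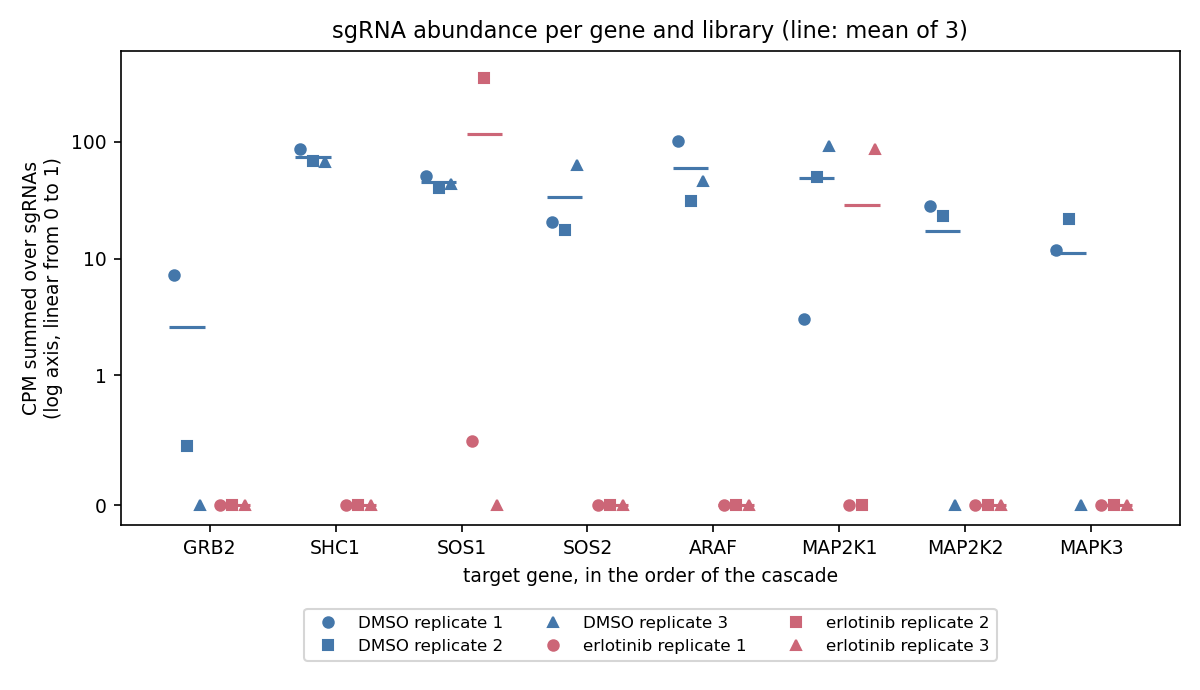
CPM summed over the sgRNAs of each gene (y axis, log scale above 1 and linear from 0 to 1) in every library, with genes on the x axis in the order of the cascade. Symbols are replicates and lines are means of 3. SHC1, SOS2 and ARAF have all DMSO libraries above all erlotinib libraries, while SOS1 reaches 351 CPM in erlotinib replicate 2 and MAP2K1 85.8 CPM in erlotinib replicate 3.

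Exact two-sided permutation tests over libraries on the summed CPM gave p = 0.1 for SHC1, SOS2 and ARAF, the smallest that 3 libraries against 3 allow. The p was 0.4 for GRB2, MAP2K2 and MAPK3, 0.5 for MAP2K1 and 1 for SOS1 in the same exact test.

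Divided by the number of listed sgRNAs, the DMSO levels ran from SHC1 at 12.4 ± 1.87 CPM per sgRNA (SD, n = 3) through ARAF at 9.90 ± 6.08, MAP2K1 at 8.08 ± 7.42, SOS1 at 7.52 ± 0.918, SOS2 at 6.79 ± 5.13, MAP2K2 at 2.85 ± 2.50 and MAPK3 at 2.79 ± 2.72 to GRB2 at 0.858 ± 1.36. No neighbours in this order differed by more than the SD of their difference between libraries. The median over the 8 genes was 7.15 CPM per sgRNA, beside 8.49 over protein-coding genes. MAP2K2, MAPK3 and GRB2 had lower levels than most genes, with 7.96%, 7.66% and 1.77% of protein-coding genes below them, and for SHC1 this share was 77.1%.

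A single sgRNA often made up most of a gene's level. The most abundant sgRNA held 36.8% of the mean DMSO level for ARAF, the lowest share of the 8, and 100% for GRB2, with a median of 58.5%, while over protein-coding genes the median was 49.4%. When single sgRNAs were tested, 27 of the 42 had a count and entered the test, and 0 of them were called in either direction (edgeR quasi-likelihood test, adjusted p under 0.05). At an unadjusted p under 0.05, 8 of the 27 were depleted and 0 enriched, with 31.2% of all tested sgRNAs depleted. These 8 were 2 sgRNAs each of SHC1, ARAF and MAP2K1 and 1 each of SOS1 and SOS2. The smallest adjusted p belonged to SHC1 sgRNA 4 (adjusted p = 0.0998, edgeR quasi-likelihood test). The likelihood ratio test also called 0 of the 27 after adjustment. At an unadjusted p under 0.05 it had 10 of the 27 depleted, beside 27301 of all 74555 tested. DESeq2 called 6 of the 27 depleted after adjustment, beside 30673 of the 74555.

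**Figure D4:**
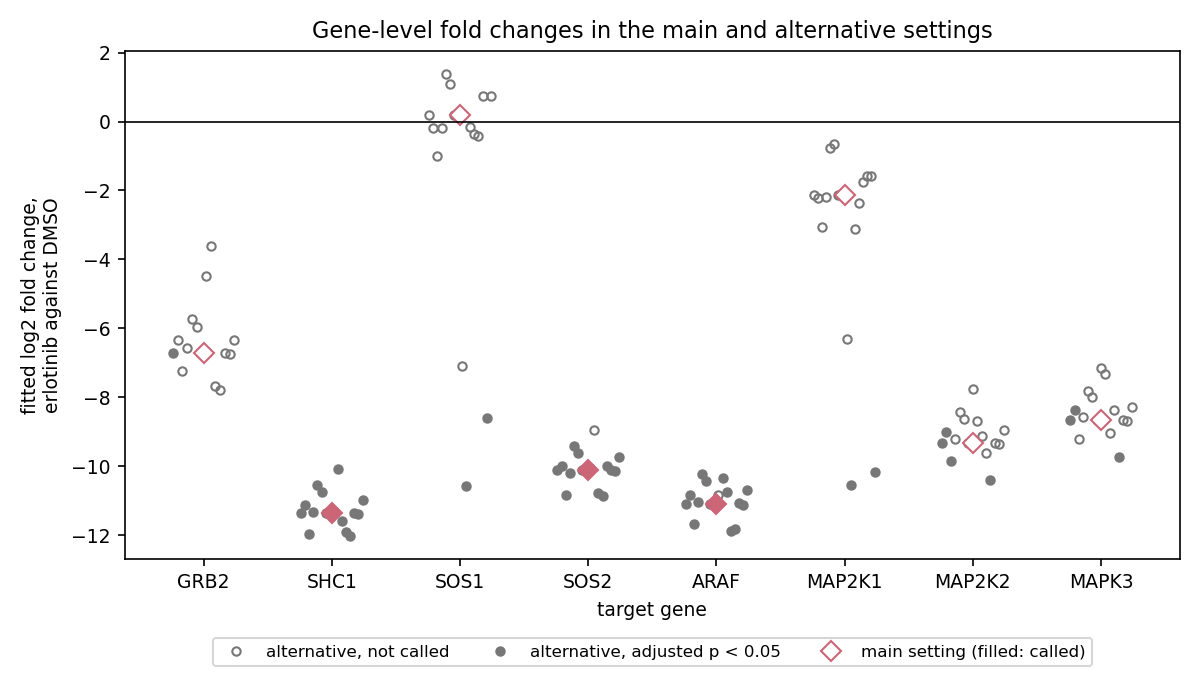
Fitted log2 fold change of erlotinib against DMSO (y axis) for each gene (x axis) in the main setting (diamonds, filled where called at an adjusted p under 0.05) and in each alternative (circles, filled where called). SHC1, SOS2 and ARAF lie between -12.02 and -8.95 in the alternatives, and SOS1 between -10.58 and 1.38.

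Other genes of the route were taken as lists in the same test. Those named, in this and the following lists, were mainly the 3 of each list with the highest DMSO level. A bound is the DMSO mean over a fixed floor. For such genes with 0 counts under erlotinib, large bounds and calls therefore largely follow from that choice. Of 15 further members of the cascade, 8 were depleted (53.3%, beside 66.1% of all genes), 0 enriched and 7 not called, with a median log2 fold change of -8.59 beside -10.13 for all. EGFR, the target of erlotinib, had 83.5, 100 and 171 CPM in DMSO and 0 counts in the erlotinib libraries (adjusted p = 0.00503, edgeR quasi-likelihood test). BRAF, the RAF kinase with the strongest activity toward MEK, had 158, 126 and 45.1 CPM in DMSO and 0 under erlotinib (adjusted p = 0.00522, edgeR quasi-likelihood test). MRAS, a RAS-related GTPase, was depleted although it kept 2.96 and 1.80 CPM in erlotinib replicates 1 and 3 (adjusted p = 0.00949, edgeR quasi-likelihood test).

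A further list held 12 genes for docking and scaffold proteins of the route and for exchange factors of RAS outside the SOS family. All 12 were depleted, beside 66.1% of all genes, with a median log2 fold change of -10.69, and 0 of their 65 sgRNAs were read in any erlotinib library, beside 5.34% of all sgRNAs with a target. IQGAP1, with the highest DMSO level of this list, gave 211, 167 and 64.1 CPM there, the exchange factor RASGRF1 gave 112, 85.7 and 107, and the scaffold SHOC2 gave 117, 95.2 and 23.5. Of 12 targets of ERK, 9 were depleted, 0 enriched and 3 not called, with a median of -10.77, so 75% were called beside 66.1% of all genes. The kinase RPS6KA1 had 50.0, 38.5 and 171 CPM in the DMSO libraries, a level at least 63.7-fold above that under erlotinib, or 32.6-fold without DMSO replicate 3. The transcription factor ETV4 had 53.5, 149.6 and 43.2 CPM and was at least 60.5-fold lower, or 35.6-fold without DMSO replicate 2. EGR1, an immediate early transcription factor, was not called, with 137, 83.9 and 139 CPM in DMSO and 0, 0 and 762 under erlotinib. Without erlotinib replicate 3 it was called depleted (adjusted p = 0.00749, edgeR quasi-likelihood test), and the adjusted p ran from 0.00423 to 0.969 over the alternatives. That library held all erlotinib reads of EGR1, so the call largely follows from leaving it out.

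Of 16 brakes on the route, 13 were depleted (81.2%, beside 66.1% of all genes), 0 enriched and 3 not called, with a median of -10.41. The phosphatase DUSP5 had 159, 52.6 and 24.8 CPM in the DMSO libraries, a level at least 58.0-fold above that under erlotinib, or 28.5-fold without DMSO replicate 1. The ubiquitin ligase CBL had 28.1, 144 and 46.4 CPM and was at least 53.7-fold lower, or 27.4-fold without DMSO replicate 2. PEBP1, which binds RAF, had 132, 84.8 and 191 CPM in DMSO and 57.7, 0 and 0 under erlotinib and was not called (adjusted p = 0.231, edgeR quasi-likelihood test). Without erlotinib replicate 1 its log2 fold change went from -4.01 to -12.17 and it was called (adjusted p = 0.00731, edgeR), with a range up to 0.386 over the alternatives. Here too the library left out held all erlotinib reads of the gene. ERRFI1, an inhibitor of EGFR, had 16.2, 39.9 and 21.0 CPM in DMSO and 0, 566 and 2.70 under erlotinib and was not called either (adjusted p = 0.564, edgeR quasi-likelihood test). As with SOS1, its erlotinib reads lay almost wholly in replicate 2, and with its most abundant sgRNA left out it was called depleted (adjusted p = 0.0369 in edgeR, within a range up to 0.849). That setting takes out the sgRNA that held the replicate 2 reads, so the call largely follows from the choice.

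The genes whose levels over the 6 libraries were nearest to the mean profile of the 8, by Euclidean distance of log2(CPM + 1), were LPPR4 at 1.20, the microRNA hsa-mir-4254 at 1.31 and ASB11 at 1.32.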

How the data were processed

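The authors amplified sgRNA sequences from genomic DNA and deposited raw read counts, with a row for each sgRNA of 20 bases and a column for each library. The counting program and mismatch allowance are not given in the sources used here. Groups and replicate numbers came from the sample titles, and columns were matched to samples by their descriptions. The 993 non-targeting of 107237 listed sgRNAs were left out of the tests, and so were sgRNAs with 0 counts in every library. The study's own filter on low counts compares each count with its library's median, which was 0 in each library, so it could remove nothing here. Counts per sgRNA, and counts summed per target symbol, were tested across all features with edgeR 4.0.16 in R 4.3.3 (quasi-likelihood, upper-quartile factors at the 0.99 quantile from the sgRNA counts, Benjamini-Hochberg adjusted p under 0.05). The SE of a fold change is its size over the square root of F. CPM used library totals with non-targeting sgRNAs. A fold against 0 counts is the DMSO mean over the mean erlotinib floor of 3 counts per library, 1.36 CPM. It is an approximate bound and leaves out the spread between DMSO libraries. DESeq2 1.42.0, Python 3.11.15, scipy 1.17.1 and matplotlib 3.10.9 served the alternatives, exact tests and plots. The steps were run on simulated data with less spread between libraries than these data. The fitted common dispersion, a measure of that spread, was 3.11 for genes and 9.74 for sgRNAs here. The simulation is therefore no check of the calls at that spread. No genome was used, so sgRNAs have no coordinates.

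The 8 genes and the other lists were chosen with earlier results of these data known. All sgRNAs of the 8 were to be named, with the 3 genes of each other list highest in DMSO, those with counts in at least 2 erlotinib libraries, and the 3 nearest profiles. Some genes of the other lists are not reported here. Whether replicate numbers pair the libraries was not settled by the check given in the closing section. The alternatives were other tests, scalings and filters, a block for the replicate number, the most abundant sgRNA of each gene over the 6 libraries or each library in turn left out, and other detection thresholds or equal depth.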

Additional observations from a re-analysis of the deposited data

How the results depend on the processing

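SHC1 and ARAF stayed depleted in 15 of 16 alternatives and SOS2 in 14, and with the replicate block none of them did (adjusted p = 0.183 for each, edgeR). Same-numbered DMSO and erlotinib libraries share the forward part of their labels. Their deviations from the condition means were uncorrelated (r = 0.0102, -0.00105 and -0.00211 over 20409 genes for replicates 1 to 3). With 0 counts in all 3 erlotinib libraries for 75.9% of all listed genes, this check cannot tell whether the libraries were paired. Under the replicate block, 0 of the 8 genes and 0 of all genes were depleted and 0 enriched (also 0 at an unadjusted p under 0.05), against 3, 13496 and 1 in the main setting, and a weaker effect cannot be read from that. The number of depleted genes among the 8 was 6 by the likelihood ratio test, beside 15118 of all 20409 tested. It was 5 by DESeq2, beside 14983 of 20409. When each library was left out in turn it was 3 to 5, beside 11176 to 12417 of 19969 to 20404 genes.

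The count of enriched genes of all tested was 5 by the likelihood ratio test, 13 by DESeq2, 2 with total-count scaling, 0 with filterByExpr, 0 without the most abundant sgRNA of each gene and 0 to 3 with a library left out. For single sgRNAs the main setting called 0 of 74555 (23282 depleted and 521 enriched at an unadjusted p under 0.05). DESeq2 called 30673 depleted and 13 enriched of the 74555. With filterByExpr these were 5988 and 1 of 7880, and with a filter on counts in at least 2 libraries 17200 and 61 of 34561. With a library left out the counts ran from 0 to 14276 depleted and 0 to 303 enriched, the highest of each without DMSO replicate 3. Of the sgRNAs of the 8 genes, DESeq2 called 6 depleted, filterByExpr 3 of the 3 it kept, the filter on 2 libraries 5 of 10, and leaving out a library 0 to 5, with 0 to 1 enriched. The 3 that filterByExpr kept had counts in all 3 DMSO libraries and 0 counts under erlotinib. They passed that filter through DMSO alone, so their calls largely follow from it. Most of the 10 also passed their filter through DMSO alone.

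The log2 fold change of SOS1 turned negative with DESeq2 (-0.18), TMM (-1.01), DESeq2 size factors in edgeR (-0.18), the replicate block (-7.11), its most abundant sgRNA left out (-10.58), and without DMSO replicate 1 (-0.16), 2 (-0.37) or 3 (-0.42) or erlotinib replicate 2 (-8.61), and ran from -8.61 to 0.75 with a library left out. EGR1 turned positive with total-count (1.08) and non-targeting scaling (1.19) and without erlotinib replicate 1 or 2 (0.12 for each), and ran from -11.64 to 0.12 with a library left out. ERRFI1 turned negative with the replicate block (-3.99), its most abundant sgRNA left out (-6.13) and without erlotinib replicate 2 (-5.64), and ran from -5.64 to 2.29 with a library left out. For SOS1 and ERRFI1, leaving out erlotinib replicate 2 or the most abundant sgRNA takes out almost all erlotinib reads, so those turns follow from the choice. The cause of the other turns was not tested. The median over all genes was -10.13, and -10.75 with TMM, -9.32 with total counts and -9.52 with non-targeting scaling. Relative to that median, SOS1 was higher by 10.31 in the main setting, 9.74 with TMM, 10.70 with total counts and 10.60 with non-targeting scaling.

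At a threshold of 10 counts, 25.4% of the sgRNAs of the 8 genes were found per DMSO library, and at 3 or 10 counts 1.59% per erlotinib library. Thinned to 1574743 counts, the shares were 30.2% and 2.38%. The number of libraries and the emptiness of the erlotinib libraries limit what can be told of a gene with reads from 1 or 2 sgRNAs.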
